A study of Mus musculus with 45 samples.

Results

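The genes described here were 9 interferon-inducible GTPases, the guanylate-binding proteins Gbp2b, Gbp3, Gbp4, Gbp5, Gbp7, Gbp8 and Gbp9 and the immunity-related GTPases Irgm1 and Iigp1. They were named as a family and not picked by a measured value in this description, but earlier results of these data were known when they were chosen. Counts of members set beside the share of all genes are therefore descriptions. Each was read from its single probe set with 1 gene symbol, and 9 of 19752 genes on the array were members. The other 11 probe sets that carry symbols of this family carry several symbols at once, 2 of them with a member's symbol, and were not used. Guanylate-binding proteins have closely related sequences, so the part of each signal that comes from a near-identical relative is uncertain.

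Both families are made by macrophages after interferon, above all interferon-γ (IFN-γ), which acts on their promoters through factors that include IRF1. Guanylate-binding proteins assemble on the vacuoles and surfaces of bacteria and parasites inside the cell, damage them and feed their contents to inflammasomes. Immunity-related GTPases act on the same vacuoles: Iigp1 (Irga6) is an effector that coats and disrupts the vacuole, and Irgm1 is a regulator that sits on the cell's own membranes and restrains the effectors. Their transcripts are therefore commonly read as a sign of interferon exposure.

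The 45 samples were flow-sorted muscle macrophages, taken from C57Bl6 males and profiled on Affymetrix gene expression arrays. DTR+ mice carried Foxp3.DTR, a diphtheria toxin receptor under the promoter of Foxp3, the defining transcription factor of regulatory T (Treg) cells, so that diphtheria toxin (DT) removes those cells; DTR- mice did not carry it. Samples came from uninjured muscle (day 0) or from day 1, 4 or 7 after intramuscular cardiotoxin, which destroys muscle fibres and starts regeneration. Every gate was Ly6g- CD11b+ F4-80+, and cells were split into MHCII+ and MHCII- subsets.

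One day 7 set gives no DT time and held 2 DTR+ and 2 DTR- MHCII+ arrays, from mice aged 10 weeks. The day 7 set labelled DT 24 h held 2 DTR+ and 4 DTR- MHCII+ arrays and 3 DTR+ and 3 DTR- MHCII- arrays, from mice aged 8 weeks. The day 7 set labelled DT 8 h held 3 DTR+ and 3 DTR- MHCII+ arrays and 3 DTR+ and 4 DTR- MHCII- arrays, from mice aged 12 weeks. Day 1, labelled DT 24 h, held 2 arrays of each genotype and subset at 8 weeks. Day 4 held 2 DTR- arrays of each subset at 8 weeks, and day 0 held 2 DTR- arrays of each subset at 10 weeks. A SiglecF- step was part of the gate in the DT 8 h set and at days 1 and 4, and at days 1 and 4 the gate also kept CD45+ DAPI- cells. The moment from which 8 h and 24 h are counted, and whether samples without a DT time received toxin, are not stated in the labels. Nor do the labels say that samples of a group came from separate mice, so the p-values measure only the spread between these samples, which may be technical.

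Groups were taken from the sample titles, because the marker field of the labels contradicts them: it gives MHCII- everywhere except in MHCII+ samples of day 0. The titles were borne out by the class II gene H2-Ab1, with log2 levels of 13.67 to 14.01 in 24 MHCII+ arrays and 7.81 to 12.45 in 21 MHCII- arrays, which do not overlap. Adgre1 (F4/80) and Csf1r, which mark macrophages, lay at log2 12.35 or higher in all arrays. The arrays cannot check the genotype. Ifng and Foxp3 stayed below the intensity filter (log2 7.57) in 18 of 18 groups, and the T cell gene Cd3e reached it in 1, DTR+ MHCII+ cells of the DT 8 h set (mean 8.27). Marker lists set several arrays apart from the others of their groups, and 2 of these are described first. MHCII- replicate 1 of day 0 had a mean log2 level of 10.34 over 9 neutrophil genes, against 7.30 in replicate 2. DTR+ MHCII+ replicate 1 of the DT 8 h set had 9.42 over 8 T cell genes, against 7.82 and 7.76 in the other replicates. Calls that rest on these 2 arrays are given with and without them. In DTR- MHCII+ cells of the DT 24 h set the neutrophil list ran from 6.22 to 7.31 (mean 6.58). The eosinophil list ran from 6.37 to 7.10 there (mean 6.66). In DTR- MHCII- cells of the DT 8 h set the monocyte list ran from 8.28 to 10.37 (mean 9.63). In such sorted populations, fewer cells making a transcript and less of it per cell cannot be told apart.

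Promoter sequences are shown because interferon response elements are what these genes are known to share. Windows of 250 bases before to 50 bases from the transcript start were taken from RefSeq (assembly GRCm38.p6). Those used here covered 5 of the 9 members, in 6 windows. No window was used for Gbp4, Gbp8, Gbp9 or Iigp1, so their promoters were not searched. Capitals mark matches of 2 motifs searched on both strands. One is the gamma-activated site (GAS) TTCNNNGAA, an element of IFN-γ-induced promoters. The other is a core of the interferon-stimulated response element (ISRE): GAAA, any 2 bases, and GAAA again, or its reverse complement. The windows are chr3:142594597-142594896 for Gbp2b, chr3:142559794-142560093 for Gbp3, chr3:142496684-142496983 for Gbp5, chr3:142530086-142530385 for Gbp7, all on the plus strand, and chr11:48871371-48871670 on the minus strand for Irgm1. Each is written 5′ to 3′ on the strand of its gene.
Gbp2b: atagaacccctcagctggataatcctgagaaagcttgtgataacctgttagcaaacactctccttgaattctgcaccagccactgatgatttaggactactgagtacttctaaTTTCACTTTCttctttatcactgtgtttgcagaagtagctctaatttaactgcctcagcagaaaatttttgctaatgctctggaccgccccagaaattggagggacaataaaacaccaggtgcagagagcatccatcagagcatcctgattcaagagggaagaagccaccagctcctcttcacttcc
Gbp3: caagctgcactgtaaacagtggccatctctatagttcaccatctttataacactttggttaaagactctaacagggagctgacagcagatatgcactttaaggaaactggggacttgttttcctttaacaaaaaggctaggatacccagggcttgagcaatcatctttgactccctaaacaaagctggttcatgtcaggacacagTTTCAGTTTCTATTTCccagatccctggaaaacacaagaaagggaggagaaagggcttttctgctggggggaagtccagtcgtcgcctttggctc
Gbp5: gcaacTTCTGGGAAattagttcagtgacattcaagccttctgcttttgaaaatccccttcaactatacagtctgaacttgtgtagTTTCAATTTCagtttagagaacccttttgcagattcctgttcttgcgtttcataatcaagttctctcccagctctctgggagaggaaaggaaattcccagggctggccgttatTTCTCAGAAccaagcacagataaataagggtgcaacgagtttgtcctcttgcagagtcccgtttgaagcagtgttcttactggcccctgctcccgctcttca
Gbp7: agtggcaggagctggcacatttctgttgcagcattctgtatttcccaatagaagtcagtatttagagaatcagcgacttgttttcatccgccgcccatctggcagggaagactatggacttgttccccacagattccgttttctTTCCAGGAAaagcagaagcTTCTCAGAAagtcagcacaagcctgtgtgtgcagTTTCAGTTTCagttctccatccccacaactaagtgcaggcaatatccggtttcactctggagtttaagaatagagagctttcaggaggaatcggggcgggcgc
Irgm1: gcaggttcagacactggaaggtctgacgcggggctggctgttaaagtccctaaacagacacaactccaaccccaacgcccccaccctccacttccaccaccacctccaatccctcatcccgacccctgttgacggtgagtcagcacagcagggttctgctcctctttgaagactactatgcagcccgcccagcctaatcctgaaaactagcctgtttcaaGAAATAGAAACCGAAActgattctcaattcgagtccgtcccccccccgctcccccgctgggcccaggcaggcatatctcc

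The ISRE core was found in 5 of the 6 windows used, and 3.44% of all 32851 RefSeq windows of this length hold it. Matches began 137 bases before the start in Gbp2b, 165 in Gbp5 and 53 in Gbp7. Gbp3 had a pair of overlapping matches, beginning 45 and 39 bases before the start, as did Irgm1, at 30 and 24. The second Gbp3 window, chr3:142560106-142560405, had neither motif and is not printed. GAS matches were found in Gbp5, 245 and 52 bases before the start, and in Gbp7, 106 and 87 bases before it; 8.3% of all windows hold a GAS match and 0.454% hold both motifs. TTCTCAGAA occurred in both Gbp5 and Gbp7. In the RefSeq annotation Gbp5, Gbp7, Gbp3 and Gbp2b follow one another in this order on chromosome 3, and Gbp8, Gbp9 and Gbp4 do so on chromosome 5. A match is a description of letters, and occupancy was not measured.

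All 9 members passed the intensity filter, a group mean of at least log2 7.57 in 1 or more groups, and 11074 of the 19752 genes did. Levels are log2 intensities and are compared between samples for 1 probe set, never between probe sets. Gbp3, Gbp7, Gbp9 and Irgm1 were at or above the filter in 18 of 18 groups, whereas Gbp5 and Iigp1 were in 13, Gbp4 in 10, Gbp2b in 7 and Gbp8 in 3. Between the highest and the lowest group mean Gbp3 spanned 8.86-fold, Gbp9 3.59-fold, Gbp7 3.41-fold and Irgm1 3.04-fold. For Gbp2b, Iigp1, Gbp4, Gbp8 and Gbp5 the lowest group mean lay below the filter, at 6.53, 5.83, 6.86, 6.10 and 6.33 in this order, so their folds are not exact. Their highest group means were 12.41, 11.36, 12.09, 10.51 and 10.46.

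**Figure D1:**
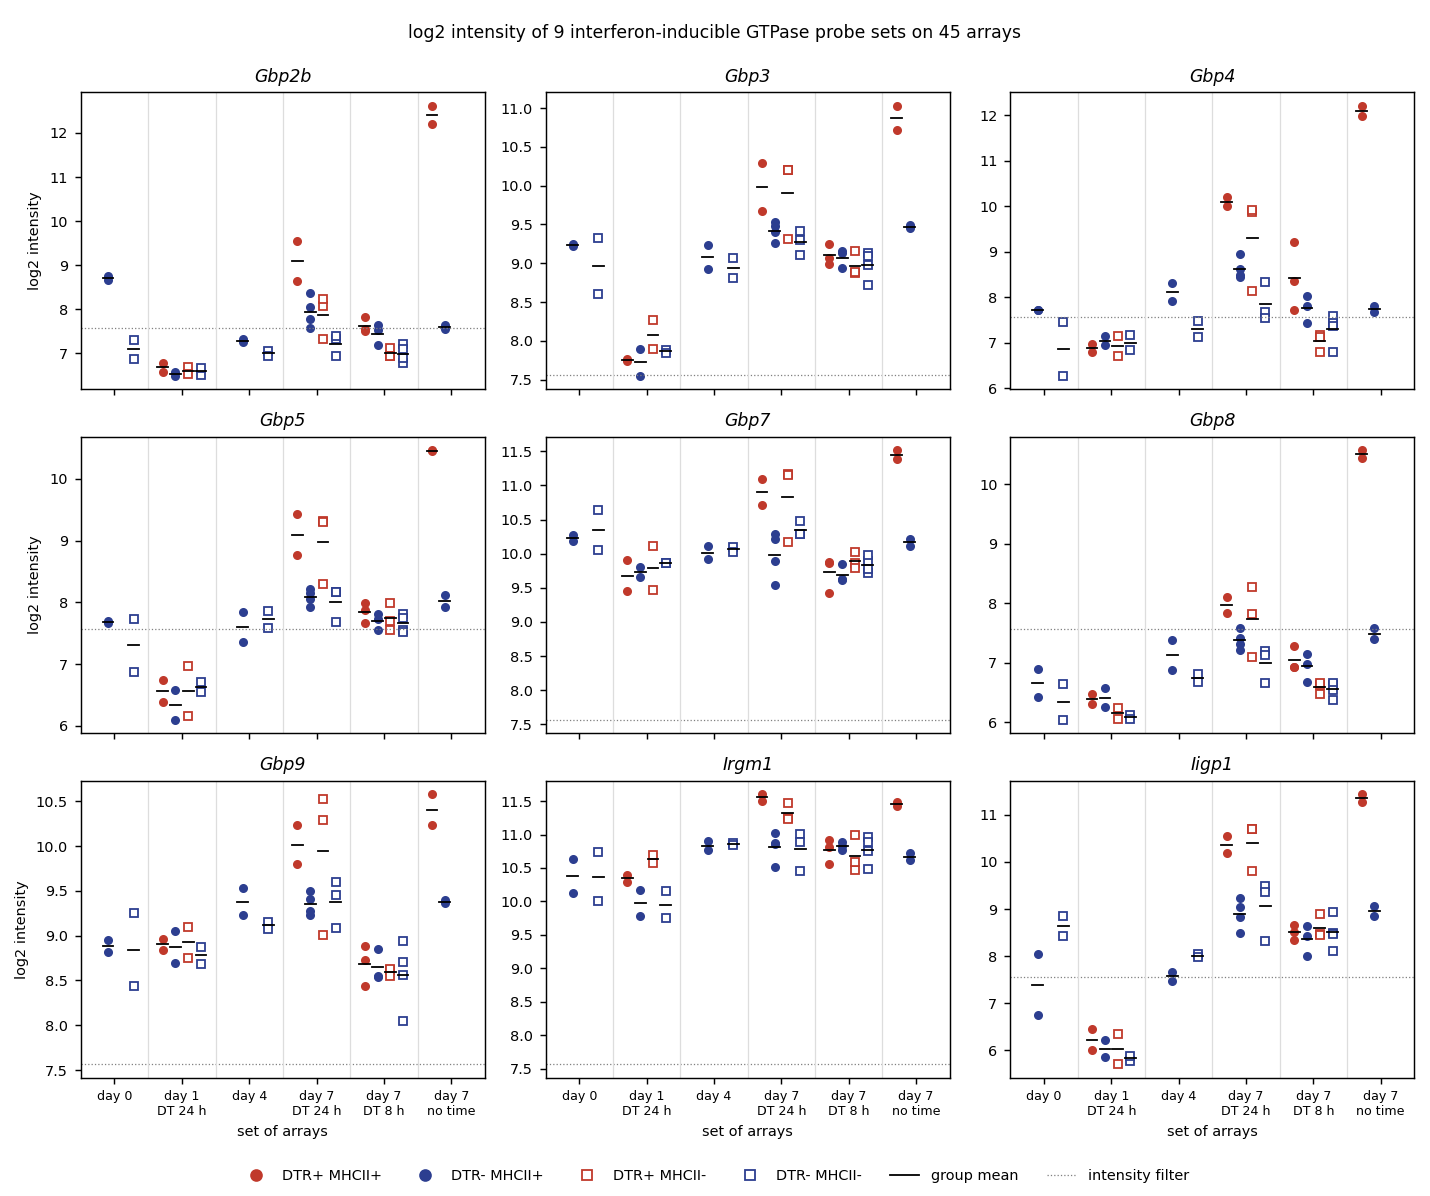
Each point is 1 of 45 arrays, with log2 intensity on the y axis and the set of arrays on the x axis; red is DTR+, blue DTR-, filled circles MHCII+, open squares MHCII-, black bars group means and the dotted line the intensity filter at 7.57. The 2 DTR+ MHCII+ arrays of day 7 with no DT time lie above all other arrays for Gbp2b (12.61 and 12.22), Gbp4 (12.20 and 11.97) and Gbp8 (10.57 and 10.45), and the day 1 arrays lie lowest for Iigp1.

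The order of the group means was much alike from member to member. Highest for 8 of the 9 genes were the DTR+ MHCII+ macrophages of day 7 with no DT time. Irgm1 differed, at 11.56 in DTR+ MHCII+ cells of the DT 24 h set and 11.46 in that group, and the ranges of these neighbours did not overlap. Next for Gbp2b, Gbp3, Gbp4, Gbp5, Gbp7, Gbp8 and Gbp9 came the DTR+ MHCII+ cells of the DT 24 h set, and the arrays of the first and second group did not overlap for any of these. Gbp2b stood at 12.41 and 9.10 in these top groups, Gbp4 at 12.09 and 10.10, and Gbp8 at 10.51 and 7.98. Below them most neighbours overlapped: for Gbp2b, DTR- MHCII+ cells of day 0 (8.70) lay clear of those of the DT 24 h set (7.94), and the 14 lower neighbours in the order all overlapped in turn. The lowest mean was a day 1 group for 7 genes, with Iigp1 at 5.83 and Gbp5 at 6.33. Gbp4 was lowest in MHCII- cells of day 0 (6.86) and Gbp9 in DTR- MHCII- cells of the DT 8 h set (8.56).

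Pairs of members correlated at 0.65 to 0.97 over the 18 group means (36 pairs, median 0.84), highest for Gbp3 with Gbp5 and lowest for Gbp2b with Irgm1. Over the deviations of 45 arrays from their group means the correlations were 0.18 to 0.90 (median 0.625), again highest for Gbp3 with Gbp5. These points share arrays and normalization, and the values are descriptions. The common movement within groups shows in single arrays. In the DT 24 h set, DTR+ MHCII- replicate 3 lay below its group mean for 9 of 9 members, by 0.66 on average, and DTR- MHCII- replicate 3 for 9 of 9, by 0.31. At day 0, MHCII- replicate 2 lay below replicate 1 for 9 of 9 members. The spread of the members within groups (residual SD) was 0.44 at day 0 and 0.40 in the DT 24 h set, and 0.14 in the day 7 set with no DT time, against 0.31 over all arrays. All tests used 1 pooled spread.

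The comparison of DTR+ with DTR- macrophages asked whether GTPase transcripts in macrophages differed in mice open to Treg depletion. In MHCII+ cells of day 7 with no DT time, 9 of 9 members rose in DTR+ mice and their arrays did not overlap with DTR- arrays for any of the 9. Of all tested genes 5.32% rose in this comparison and 33.3% were higher without overlap. The median difference of the members was 2.40 on the log2 scale, against -0.01 for all genes. The sizes of the rises ranged from less than 2-fold to above 20-fold.

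Gbp2b (also known as Gbp1), which targets bacteria and vacuoles, had the widest difference, with 12.61 and 12.22 in DTR+ cells, against 7.63 and 7.54 in DTR- cells. Its difference was 4.83 ± 0.25 (log2, SE), or 28.5-fold (limma, adjusted p = 2.8e-16). Gbp4 had 12.20 and 11.97 in DTR+ cells, against 7.81 and 7.66 in DTR- cells, a difference of 4.35 ± 0.41 or 20.4-fold (1.0e-09). Gbp8 had 10.57 and 10.45 in DTR+ cells, against 7.58 and 7.40 in DTR- cells (3.02 ± 0.24, 3.4e-11). In DTR- cells these 3 genes thus lay close to the intensity filter of 7.57, and in DTR+ cells far above it. Gbp8 reached the filter only in 3 groups, all of them DTR+, and entered the test through those, so that its mean in DTR- cells (7.49) is below the filter and its pass is not separate support.

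Gbp5, which promotes assembly of the NLRP3 inflammasome, had 10.45 and 10.47 in DTR+ cells, against 7.92 and 8.12 in DTR- cells (2.44 ± 0.28, adjusted p = 6.2e-08). The vacuole effector Iigp1 had 11.27 and 11.44 in DTR+ cells, against 8.84 and 9.06 in DTR- cells, a 5.29-fold difference (2.40 ± 0.34, 3.9e-06). Gbp3 rose by 1.40 ± 0.23 (2.9e-05) and Gbp7, which takes part in killing of intracellular bacteria, by 1.28 ± 0.25 (3.7e-04). The 2 smallest rises were those of Gbp9 and of the regulator Irgm1. Gbp9 had 10.58 and 10.24 in DTR+ cells, against 9.40 and 9.36 in DTR- cells (1.03 ± 0.30, adjusted p = 0.020). Irgm1 had 11.43 and 11.49 in DTR+ cells, against 10.62 and 10.72 in DTR- cells, a 1.73-fold difference (0.79 ± 0.21, 0.0096). Without any 1 of the 4 arrays, 7 or 8 members passed. Gbp9 no longer passed without DTR+ replicate 1 (adjusted p = 0.25) or either DTR- replicate (0.11 and 0.12), nor Irgm1 without DTR+ replicate 1 or 2 (0.063 and 0.071) or DTR- replicate 1 (0.099).

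**Figure D2:**
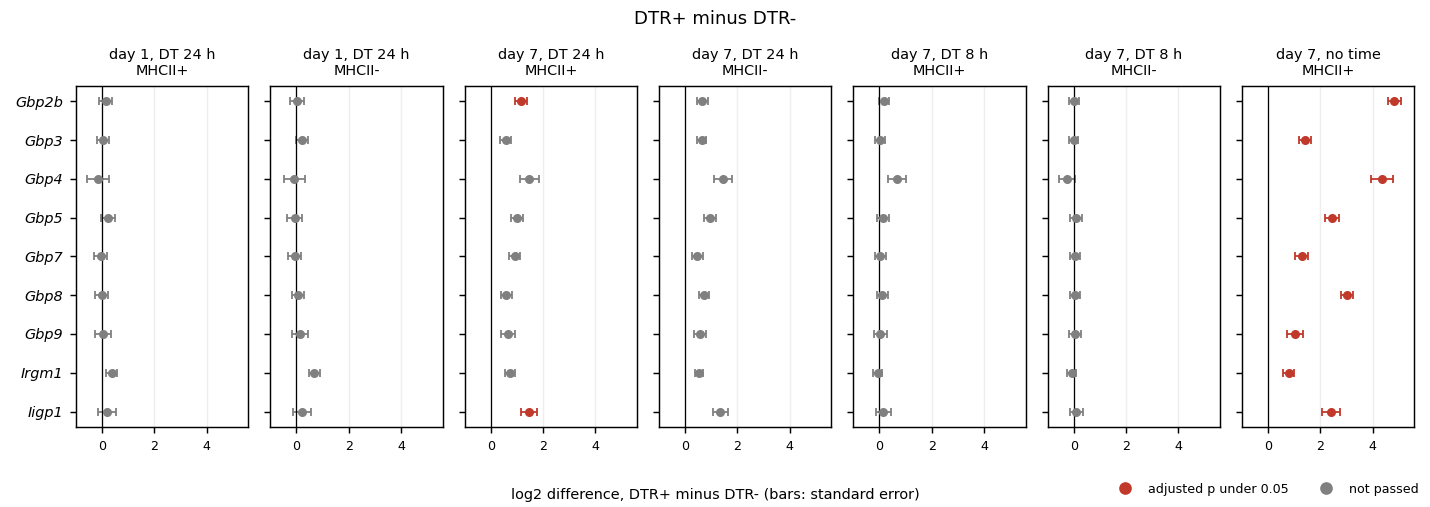
The x axis of each of the 7 panels gives the log2 difference DTR+ minus DTR- with its standard error, 1 row per gene, and red points passed at an adjusted p under 0.05. Differences reach 4.83 for Gbp2b at day 7 with no DT time, lie between 0.47 and 1.48 in the 2 DT 24 h panels of day 7, and lie near 0 in most rows of the day 1 and DT 8 h panels.

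Other interferon genes were counted by list in this comparison. Of the 6 other interferon-inducible GTPases tested (7 measured), 3 rose, 1 fell and 2 did not pass; the median was 0.37. Gbp11, a further guanylate-binding protein, rose by 2.43 ± 0.16 (adjusted p = 4.5e-13), and the immunity-related GTPase genes Gm4951 and Gm12250 rose by 1.72 and 0.91. Mx2, an antiviral dynamin-like GTPase induced by type I interferon, fell by 1.21 ± 0.32 (0.0096). Of 17 other IFN-γ-induced genes 13 rose and 0 fell, with a median of 0.97. Nos2, inducible nitric oxide synthase, rose by 3.08 ± 0.15 (2.1e-16), and Cd274, the inhibitory ligand PD-L1, by 2.21 ± 0.28 (5.9e-07). Of 19 type I interferon-stimulated genes 0 rose, 6 fell and 13 did not pass, with a median of -0.66; 6.2% of all tested genes fell. Oas2, an antiviral oligoadenylate synthetase, stood at 9.78 ± 0.02 in DTR+ cells, against 11.08 ± 0.02 in DTR- cells (SD, n = 2 each), a fall of 1.30 (1.2e-06), and Ddx58, the RNA sensor RIG-I, fell by 0.89 (2.6e-04).

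Of 14 genes of the IFN-γ receptor and its signalling, 4 rose and 0 fell (median 0.22). The feedback inhibitor Socs1 rose by 1.55 ± 0.13 (adjusted p = 6.6e-11), the kinase gene Jak2 by 1.42, the transcription factor gene Batf2 by 0.86 and the phosphatase gene Ptpn2 by 0.81. Of 19 genes that work with the GTPases at vacuoles and inflammasomes, 1 rose and 0 fell (median 0.01): Gsdmd, the pore-forming gasdermin D, by 0.52 (0.040), whereas Casp1 (0.52, 0.21) did not pass.

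Markers of other cells moved in the same comparison. Over the monocyte list (4 of 6 genes measured) the mean log2 level was 10.46 to 10.69 in DTR+ arrays and 9.13 to 9.19 in DTR- arrays. F10 and Plac8 were higher by 3.10 and 1.61, whereas Vcan (0.85) and Ccr2 (0.10) did not pass. Over the T cell list (8 of 10 measured) the mean level was 7.01 in both DTR+ arrays and 7.76 to 7.89 in DTR- arrays. Cd28 (-3.55), Cd4 (-2.33) and Cd2 (-0.81) were lower, and Cd5 (-0.05) did not pass. The dendritic cell list stood at 7.56 to 7.68 in DTR+ arrays and 7.00 to 7.02 in DTR- arrays, where 1 of its 5 tested genes passed, Clec9a (3.19), and Flt3 (-0.36), Ccr7 (0.43) and Dpp4 (0.06) did not. The natural killer list stood at 6.44 to 6.57 in DTR+ arrays and 6.17 to 6.18 in DTR- arrays, with Klrk1 passed (2.14) and Klrd1 not (-0.35). The skeletal muscle list stood at 7.98 to 8.20 in DTR+ arrays and 8.71 to 8.90 in DTR- arrays. Over the macrophage list the level was 12.60 to 12.64 in DTR+ arrays and 12.77 to 12.78 in DTR- arrays. Mertk (-0.47) and Adgre1 (-0.35) passed as lower, and Lyz2 (-0.15) and Cd68 (-0.19) did not pass. Of the eosinophil genes Siglecf was higher by 1.00, and Ccr3 (-0.37) did not pass. Of the endothelial genes Pecam1 was higher by 1.63, and Kdr (-0.46), Cdh5 (-0.44) and Egfl7 (-0.06) did not pass. The part of these cells in the differences of the GTPases was not tested.

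**Figure D3:**
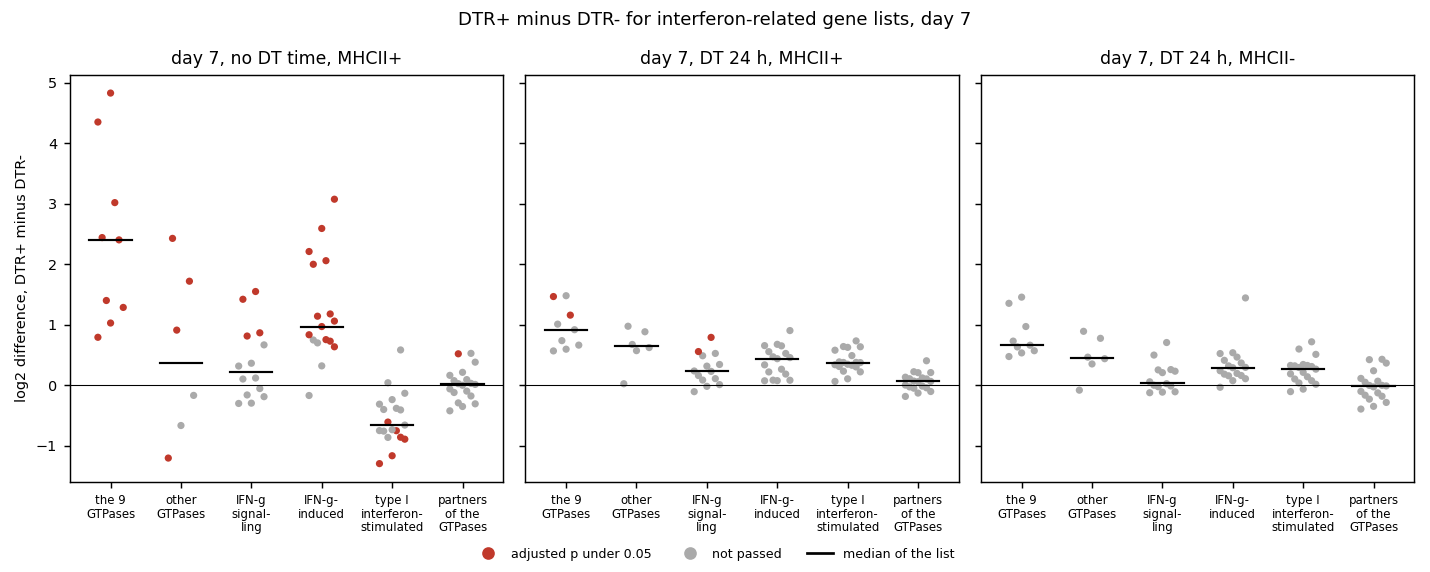
Each point is 1 gene, with the log2 difference DTR+ minus DTR- on the y axis and its list on the x axis, for day 7 with no DT time (MHCII+) and the DT 24 h set (MHCII+ and MHCII-); red points passed at an adjusted p under 0.05 and black bars are list medians. With no DT time the member median is 2.40 and that of the type I list -0.66, whereas in DT 24 h MHCII+ cells those medians are 0.92 and 0.37.

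In the DT 24 h set of day 7 the mean of each member was above that of DTR- cells in DTR+ macrophages of both subsets, and 2 members passed in 1 subset. In MHCII+ cells Gbp2b and Iigp1 rose, 7 members did not pass, and 9 of 9 were above 0 with a median of 0.92, against 0.04 for all genes. Only 0.0542% of tested genes rose. Arrays of DTR+ and DTR- did not overlap for 9 of 9 members, and 5.82% of tested genes were higher without overlap. Gbp2b had 9.55 and 8.64 in DTR+ cells, against 8.04, 7.77, 7.57 and 8.37 in DTR- cells (1.16 ± 0.22, adjusted p = 0.023). Iigp1 had 10.54 and 10.18 in DTR+ cells, against 8.83, 9.23, 8.49 and 9.04 in DTR- cells (1.46 ± 0.30, 0.045).

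Gbp4 had as large a difference, with 10.20 and 9.99 in DTR+ cells, against 8.62, 8.48, 8.44 and 8.94 in DTR- cells, and did not pass (1.48 ± 0.36, adjusted p = 0.14). The other 6 differed by 0.57 (Gbp3) to 1.01 (Gbp5), with adjusted p of 0.14 to 0.76. Both calls rested on single arrays. Without DTR+ replicate 1, Gbp2b differed by 0.70 (adjusted p = 0.33) and Iigp1 by 1.28 (0.27), and without DTR- replicate 3 by 1.04 (0.11) and 1.33 (0.22). Iigp1 also failed without DTR+ replicate 5 (1.65, 0.17) or DTR- replicate 1 (1.44, 0.18). When the 2 groups were fitted alone, neither passed (adjusted p = 1.0 for Gbp2b and 0.13 for Iigp1).

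Of the other interferon lists in DT 24 h MHCII+ cells, 2 of 14 signalling genes rose, Batf2 by 0.79 (adjusted p = 5.2e-04) and Socs1 by 0.55 (0.045). None of the 6 other GTPases, 17 IFN-γ-induced genes and 19 type I interferon-stimulated genes passed. Their medians were 0.65, 0.44 and 0.37, with 6, 17 and 19 members above 0. The monocyte list lay at 9.82 to 9.91 in DTR+ arrays and 9.45 to 10.10 in DTR- arrays, which overlap. The T cell list lay at 7.79 to 7.80 in DTR+ arrays and 7.74 to 7.95 in DTR- arrays. For neutrophils the list lay at 6.21 to 6.29 in DTR+ arrays and 6.22 to 7.31 in DTR- arrays. For eosinophils it lay at 6.44 to 6.67 and 6.37 to 7.10. The part of these cells in the GTPase differences was not tested.

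In MHCII- cells of the DT 24 h set 0 members passed, 9 of 9 were above 0, and the median was 0.66, against -0.04 for all genes; 0.00903% of tested genes passed in either direction. By limma 9 members had an unadjusted p under 0.05, as did 717 of all genes. Iigp1 had 10.70, 10.70 and 9.81 in DTR+ cells, against 9.48, 9.36 and 8.33 in DTR- cells (1.35 ± 0.28, adjusted p = 0.090), and Gbp4 had 9.87, 9.91 and 8.13, against 7.66, 8.33 and 7.55 in DTR- cells (1.45 ± 0.34, 0.22). Gbp5 had 9.31, 9.31 and 8.29 in DTR+ cells, against 8.17, 8.16 and 7.68 in DTR- cells. The third value of each DTR+ triplet is replicate 3, the low one in 9 of 9 members. DTR+ and DTR- arrays did not overlap for 3 of 9 members (Gbp5, Irgm1 and Iigp1), and 2.85% of tested genes were higher without overlap.

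Without DTR+ replicate 3, 6 members passed: Gbp4 (2.04, adjusted p = 0.0012), Gbp5 (1.31, 0.0062), Gbp8 (1.05, 0.0084), Iigp1 (1.65, 0.0084), Gbp3 (0.93, 0.011) and Gbp9 (1.04, 0.024). That array stood out by the members' own values, and its removal raised every DTR+ mean, so these calls are not separate support. DTR- replicate 3 was low for all members too, by 0.31 on average, and was kept in this fit. Gbp8 moreover entered the test only through DTR+ groups. Gbp2b (0.93, 0.052), Gbp7 (0.80, 0.12) and Irgm1 (0.58, 0.60) did not. With the replicate number as a block 3 passed (Iigp1, Gbp4 and Gbp5). With estimated array quality weights 9 passed, but those weights were 0.464, 31.2 and 0.0301 for the DTR+ arrays, so that this group rested almost wholly on replicate 2, and their estimation did not converge. The genotype difference in MHCII+ cells minus that in MHCII- cells was 0.50 ± 0.30 for Gbp2b and -0.13 to 0.44 for the other 8; 0 members and 0% of tested genes passed.

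In the DT 8 h set of day 7 none of the 9 members passed in either subset. The median difference was 0.11 in MHCII+ cells, where 0.488% of tested genes passed, and 0.03 in MHCII- cells, where 0.0181% did. Gbp4 in MHCII+ cells differed most, with 9.21, 7.73 and 8.35 in DTR+ cells, against 8.03, 7.42 and 7.81 in DTR- cells (0.67 ± 0.34, adjusted p = 0.28), and its arrays overlapped. Without DTR+ replicate 1, the array high in T cell genes, it differed by 0.28 (0.87). Iigp1 had 8.65, 8.33 and 8.52 in DTR+ cells, against 8.63, 8.01 and 8.43 in DTR- cells. By limma 0 members had an unadjusted p under 0.05 in MHCII+ cells or in MHCII- cells, as against 2044 and 486 of all genes. The difference of the subsets was 0.93 ± 0.46 for Gbp4 and -0.02 to 0.17 for the other 8, and 0 members and 0% of tested genes passed.

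The larger differences at DT 24 h than at DT 8 h did not pass as a change of effect. The DT 24 h difference minus the DT 8 h difference was above 0 for 9 of 9 members in both subsets, with medians of 0.81 in MHCII+ and 0.65 in MHCII- cells. For Gbp2b in MHCII+ cells it was 0.98 ± 0.30 (adjusted p = 0.28) and for Iigp1 1.32 ± 0.41 (0.28). In MHCII- cells it was 1.72 ± 0.46 for Gbp4 (0.84) and 1.25 ± 0.38 for Iigp1 (0.84). In both subsets 0 members and 0% of tested genes passed; an unadjusted p under 0.05 was reached by 5 and 7 members. Without DTR+ MHCII- replicate 3, the array low for all members, Gbp4 passed (2.30, adjusted p = 0.017). Its removal raised the DTR+ means of the DT 24 h set, so this pass is not separate support. Mouse age and the SiglecF step of the gate differ between these sets as well, and cannot be told apart from the DT time.

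At day 1 of injury, also labelled DT 24 h, 0 members passed in MHCII+ cells (0% of tested genes) or MHCII- cells (0%), with medians of 0.03 and 0.06. Irgm1 came closest, with 10.69 and 10.58 in DTR+ MHCII- cells, against 10.15 and 9.75 in DTR- cells (0.69 ± 0.21, adjusted p = 1.0). It was 1 of 154 genes with an unadjusted p under 0.05 in MHCII- cells and the single member there; in MHCII+ cells 0 members and 25 genes reached it. Iigp1, which the arrays found at its lowest on this day, had 6.45 and 6.01 in DTR+ MHCII+ cells, against 6.21 and 5.85 in DTR- cells. The genotype difference at day 7 (DT 24 h) minus that at day 1 was above 0 for 9 of 9 members in MHCII+ cells (median 0.78) and for 8 of 9 in MHCII- cells (median 0.64). None passed, as for 0% of tested genes in MHCII+ and 0% in MHCII- cells; Gbp4 had the largest values, 1.64 ± 0.54 and 1.53 ± 0.53 (adjusted p = 1.0 in both).

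The DTR+ difference at day 7 with no DT time was set against those of the DT sets by tests added after the values had been seen. Against the DT 24 h set in MHCII+ cells, 4 members passed as higher, as did 2.64% of tested genes: Gbp2b by 3.67 ± 0.33 (adjusted p = 1.3e-09), Gbp4 by 2.87 ± 0.54 (4.7e-04), Gbp8 by 2.42 ± 0.32 (3.0e-06) and Gbp5 by 1.43 ± 0.37 (0.011). Irgm1 (0.06), Gbp7 and Gbp9 (0.37 each), Gbp3 (0.83) and Iigp1 (0.94) did not pass. Gbp8 reached the filter only in DTR+ groups and entered the tests through those, so its pass against either DT set is not separate support. Gbp5 failed without DTR+ replicate 5 of the DT 24 h set (1.10, 0.13), and without DTR+ replicate 1 (1.44, 0.051) or DTR- replicate 1 (1.33, 0.073) of the set with no DT time; Gbp3 passed without DTR+ replicate 1 of the DT 24 h set (1.14, 0.027).

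Against the DT 8 h set 8 members passed, by 4.65 for Gbp2b down to 0.86 for Irgm1 (adjusted p = 0.044), and 4.13% of tested genes did. Gbp9 did not pass (0.99 ± 0.39, 0.12). Irgm1 failed without 9 of the 10 arrays taken out in turn (adjusted p up to 0.17), and Gbp7 without DTR+ replicate 1 (0.074) or DTR- replicate 2 (0.056) of the set with no DT time. For Irgm1 the DTR+ difference was thus of like size with no DT time (0.79) and at DT 24 h (0.74), whereas for Gbp2b it was 4.83 and 1.16. The 3 sets differ in mouse age, and the gate of the DT 8 h set left out SiglecF+ cells.

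The days of injury were compared in DTR- mice, to follow the GTPases through degeneration and repair. From day 0 to day 1 in MHCII+ cells 4 members fell, 0 rose and 5 did not pass, with 0 of 9 above 0 and a median of -0.68; 17% of tested genes fell. Gbp2b had 6.58 and 6.48 at day 1, against 8.75 and 8.65 at day 0 (-2.17 ± 0.25, adjusted p = 4.7e-08). Gbp3 differed by -1.52 ± 0.23 (5.0e-06) and Gbp5 by -1.34 ± 0.28 (3.5e-04). Iigp1 had 6.21 and 5.85 at day 1, against 8.04 and 6.75 at day 0 (-1.36 ± 0.34, 0.0025), and did not pass without day 0 replicate 1 (-0.72, 0.16); both of its means (6.03 and 7.39) lay below the filter.

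In MHCII- cells Iigp1 had the largest fall of any member, with 5.78 and 5.88 at day 1, against 8.85 and 8.42 at day 0 (-2.81 ± 0.34, adjusted p = 1.1e-07). Gbp3 fell too, with 7.88 and 7.84 at day 1, against 9.32 and 8.60 at day 0 (-1.10 ± 0.23, 4.3e-04), though not without day 0 replicate 1 (-0.74, 0.053). Iigp1 passed without that array (-2.60, 2.7e-05). The other 7 did not pass, and 16.2% of tested genes fell. Without day 0 replicate 2, the array that was low for all members, the differences were -1.10 for Gbp5 and -0.78 for Irgm1. That fit left replicate 1, the array high in neutrophil genes, as the only day 0 array. Leaving out a low array also raises the day 0 level, so these sizes are not separate support. Gbp2b differed by -2.17 in MHCII+ cells and -0.51 in MHCII- cells. The difference between the subsets was -1.66 ± 0.35 (0.0028), and Gbp2b was the single member for which it passed, 1.75% of tested genes having passed as lower; without MHCII- day 0 replicate 1 it was -1.88 (0.0036). For Iigp1 the difference ran the other way (1.45 ± 0.49, 0.087), and passed without MHCII+ day 0 replicate 1 (2.09, 0.0075). Day 0 and day 1 samples differ in injury, age, gate and DT label, which cannot be told apart.

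Irf1, the transcription factor gene that acts on GTPase promoters, fell between these days in both subsets, with log2 differences of -1.92 ± 0.24 in MHCII+ cells (adjusted p = 2.1e-07) and -1.99 ± 0.24 in MHCII- cells (7.3e-08). In the genotype comparisons of day 7 Irf1 did not pass. It differed by 0.67 with no DT time, and by 0.49 in MHCII+ and 0.70 in MHCII- cells of the DT 24 h set. Its part in the GTPase changes was not tested. From day 0 to day 1, 6 of the 14 signalling genes fell and 2 rose in MHCII+ cells, and 4 fell and 0 rose in MHCII- cells. The other IFN-γ-induced genes with the smallest p in MHCII+ cells moved both ways. Cxcl9 was lower (-2.94), whereas Fcgr1 (1.55), Fcgr4 (0.95) and Upp1 (0.90) were higher, and each passed. Gm4951, an immunity-related GTPase gene, had log2 differences of -1.99 in MHCII+ cells and -3.45 in MHCII- cells, both passed. Of the 19 type I genes 2 rose and 0 fell in MHCII+ cells (median 0.19), and 1 rose and 3 fell in MHCII- cells (median -0.16). Of all tested genes 18.6% rose in MHCII+ cells and 9.4% in MHCII- cells. The monocyte list stood at 11.51 to 11.76 in MHCII+ arrays of day 1 and 9.45 to 9.75 in those of day 0, and at 12.07 to 12.20 in MHCII- arrays of day 1 and 9.29 to 9.61 in those of day 0. The neutrophil list stood at 6.48 to 6.49 in MHCII- arrays of day 1, against 7.30 and 10.34 in those of day 0. All 8 of its 8 tested genes were lower. Day 0 MHCII- cells were the only group with a list mean above the filter, and 1 array carried it. Genes may have entered the test through that group, so this count is not separate support. In MHCII+ cells 4 of 5 dendritic cell genes and 3 of 5 T cell genes tested were lower at day 1. The part of these cells in the falls was not tested.

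**Figure D4:**
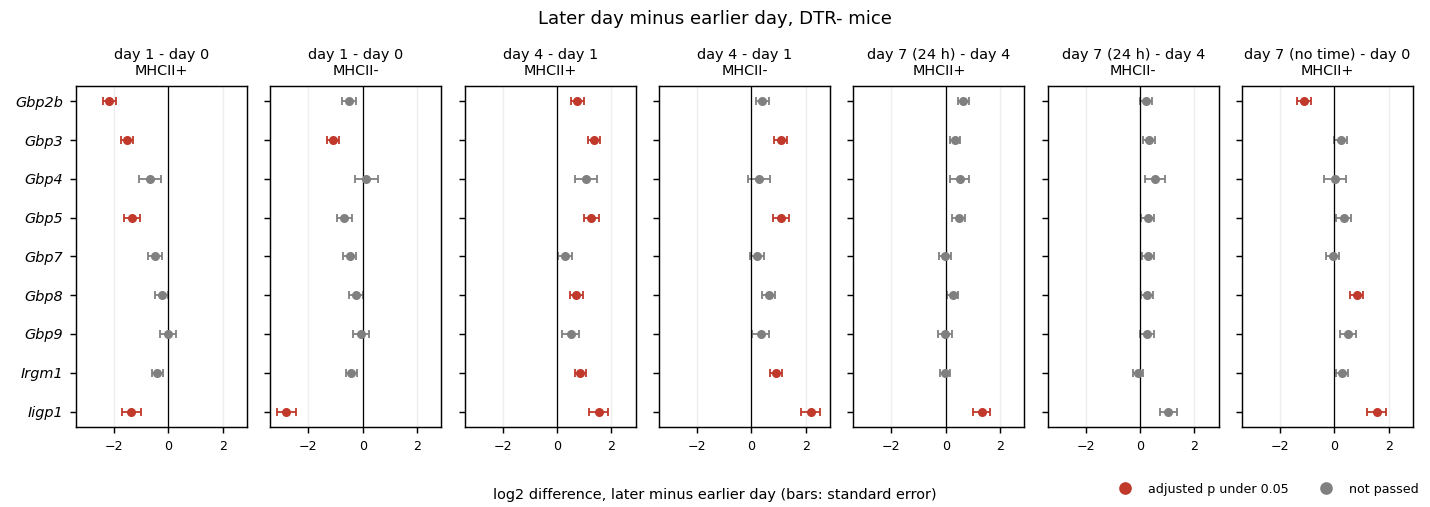
Each panel gives the log2 difference of a later minus an earlier day in DTR- mice, on the x axis, with its standard error, 1 row per gene, and red points passed at an adjusted p under 0.05. Values lie left of 0 for day 1 minus day 0, down to -2.81 for Iigp1 in MHCII- cells, and right of 0 for day 4 minus day 1, up to 2.18 for the same gene and subset; Gbp4 in MHCII- cells (0.14) is the exception in the first comparison.

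Day 4 and day 1 shared mouse age and gate, but day 1 is labelled DT 24 h and day 4 has no DT time, which cannot be told apart from the day. In MHCII+ cells 6 members rose at day 4 and 3 did not pass, with 9 of 9 above 0 and a median of 0.86; 7.77% of tested genes rose. Iigp1 had 7.47 and 7.67 at day 4, against 6.21 and 5.85 at day 1 (1.54 ± 0.34, adjusted p = 0.0018), and Gbp3 had 8.92 and 9.24, against 7.90 and 7.55 (1.36 ± 0.23, 6.9e-05). Gbp5 rose by 1.27 and Irgm1 by 0.86. Gbp2b (0.75) and Gbp8 (0.71) passed between means below the filter of 7.57, at 7.28 and 7.13 at day 4, against 6.53 and 6.42 at day 1. In MHCII- cells 4 rose and 5 did not pass (median 0.64), and 16.9% of tested genes rose. They were Iigp1 with 8.04 and 7.97 at day 4, against 5.78 and 5.88 at day 1 (2.18 ± 0.34, 1.1e-05), Gbp5 (1.09), Gbp3 (1.08) and Irgm1 (0.91). No member passed in the test of a difference between the subsets in these changes (1.23% of tested genes did), with -0.64 ± 0.49 for Iigp1 and 0.34 ± 0.35 for Gbp2b.

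Several of these calls ended when 1 array was left out. In MHCII+ cells the count was 2 without day 1 replicate 2, where Gbp5 (1.03, adjusted p = 0.055), Irgm1 (0.66, 0.11), Gbp8 (0.55, 0.29) and Gbp2b (0.71, 0.17) failed. Gbp2b failed without any 1 of the 4 arrays (0.12 to 0.17), and Gbp8 without day 1 replicate 1 (0.87, 0.074) or day 4 replicate 3 (0.46, 0.30). In MHCII- cells Irgm1 failed without day 1 replicate 2 (0.71, 0.058) and Gbp5 without day 4 replicate 1 (0.96, 0.057). Gbp3 and Iigp1 passed without any 1 array in both subsets.

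From day 4 to day 7 of the DT 24 h set Iigp1 alone rose, in MHCII+ cells, with 8.83, 9.23, 8.49 and 9.04 at day 7, against 7.47 and 7.67 at day 4 (1.32 ± 0.30, adjusted p = 0.011). Of tested genes 1.69% rose. These days also differ in gate and DT label, which cannot be told apart from the day. The call ended without day 4 replicate 2 (1.22, 0.18) or 3 (1.42, 0.083). In MHCII- cells 0 members passed, as against 1.17% of tested genes in either direction; by limma 1 member, Iigp1, had an unadjusted p under 0.05 (1.05 ± 0.31, adjusted p = 0.10), and it passed without day 7 replicate 3 (1.41, 0.015). Day 7 replicate 3 lay below its group mean for all members, so the pass without it is not separate support. With the replicate number as a block Iigp1 passed in MHCII- cells (1.41, 0.019) and not in MHCII+ cells (1.29, 0.055).

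Day 7 with no DT time and day 0 shared age and gate, and gave the closest view of injured against uninjured MHCII+ macrophages in DTR- mice. Iigp1 rose, with 8.84 and 9.06 at day 7, against 8.04 and 6.75 at day 0 (1.56 ± 0.34, adjusted p = 0.0011). Of tested genes 10.4% rose. Gbp8 passed as well, with 7.58 and 7.40 at day 7, against 6.90 and 6.42 at day 0 (0.83 ± 0.24, 0.014), but both means lay below the filter. Gbp2b went the other way: 7.63 and 7.54 at day 7, against 8.75 and 8.65 at day 0 (-1.12 ± 0.25, 0.0012), while 8.72% of tested genes fell. The 6 other members did not pass, with 0.02 for Gbp4 and 0.50 for Gbp9 at the ends of those above 0 and -0.06 for Gbp7. Without day 0 replicate 2, neither Iigp1 (0.92, 0.16) nor Gbp8 (0.59, 0.28) passed, and Gbp8 also failed without day 7 replicate 1 (0.74, 0.12).

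MHCII+ and MHCII- macrophages of each set and genotype were compared to ask whether the GTPases follow class II, itself an IFN-γ-induced trait. Gbp2b differed in 3 of the 8 comparisons, and Gbp4 and Iigp1 in 1 each. At day 0 Gbp2b was higher in MHCII+ cells, with 8.75 and 8.65, against 7.30 and 6.87 in MHCII- cells (1.61 ± 0.25, adjusted p = 1.0e-05; 8.44% of tested genes were higher). Iigp1 was lower, with 8.04 and 6.75 in MHCII+ cells, against 8.85 and 8.42 in MHCII- cells (-1.24 ± 0.34, 0.0094; 10.6% of tested genes were lower). The 7 other members did not pass, with a range of -0.12 (Gbp7) to 0.86 (Gbp4).

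The Iigp1 call at day 0 ended without MHCII+ replicate 2 (-0.60, adjusted p = 0.42) or MHCII- replicate 1 (-1.03, 0.11), and its size was -1.89 without MHCII+ replicate 1. Without MHCII- replicate 1, the array high in neutrophil genes, Gbp2b passed (1.83, 5.3e-05), as did Gbp4 (1.45, 0.042). The neutrophil list stood at 6.55 to 6.61 in MHCII+ arrays, against 10.34 and 7.30 in MHCII- arrays, the dendritic cell list at 8.07 to 8.34 in MHCII+ arrays and 6.65 to 6.69 in MHCII- arrays, and the natural killer list at 6.61 to 6.62 in MHCII+ arrays and 5.83 in both MHCII- arrays. For B cells the list stood at 7.10 to 7.79 in MHCII+ arrays and 6.66 to 6.73 in MHCII- arrays. The part of these cells in the subset differences was not tested. Gm4951 was also lower in MHCII+ cells of day 0 (-1.63, 3.5e-04). The other IFN-γ-induced genes with the smallest p moved both ways. Slamf8 (2.52) and the chemokine genes Cxcl9 (3.18) and Cxcl10 (2.10) were higher, whereas Fcgr1 was lower (-1.04), and each passed.

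In the DT 24 h set Gbp2b was higher in MHCII+ cells of both genotypes. In DTR+ mice it had 9.55 and 8.64 in MHCII+ cells, against 8.06, 8.23 and 7.33 in MHCII- cells (1.22 ± 0.23, adjusted p = 0.0012), and 1.14% of tested genes were higher. In DTR- mice it had 8.04, 7.77, 7.57 and 8.37 in MHCII+ cells, against 7.33, 7.38 and 6.93 in MHCII- cells (0.72 ± 0.19, 0.020), and 2.04% of tested genes were higher. The first call ended without MHCII+ replicate 1 (0.77, 0.24), and the second without MHCII+ replicate 1 (0.69, 0.067) or MHCII- replicate 3 (0.58, 0.13). The 8 other members did not pass in either genotype.

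In the DT 8 h set Gbp4 was higher in MHCII+ cells of DTR+ mice, with 9.21, 7.73 and 8.35, against 7.17, 6.80 and 7.12 in MHCII- cells (1.40 ± 0.34, adjusted p = 0.0079; 2.99% of tested genes were higher). The array at 9.21 is replicate 1, the array with a T cell list level of 9.42; the other MHCII+ arrays had 7.82 and 7.76 over that list, and the MHCII- arrays 7.52 to 7.60. The dendritic cell list stood at 7.40 to 7.66 in MHCII+ arrays and 6.47 to 6.68 in MHCII- arrays. The part of these cells in the Gbp4 difference was not tested. Without MHCII+ replicate 1 Gbp4 did not pass (1.01, 0.12), and Gbp2b (0.62 ± 0.20, 0.052) passed without MHCII+ replicate 3 (0.68, 0.045). In DTR- mice 0 members passed, against 2.21% of tested genes, and Gbp2b differed by 0.45 ± 0.19 (0.35). No member passed at day 4 in DTR- mice (2.12% of tested genes did), at day 1 in DTR+ mice (2.26%) or at day 1 in DTR- mice (2.45%). At day 1 Gbp2b lay at 6.78 and 6.57 in DTR+ MHCII+ cells, against 6.68 and 6.53 in DTR+ MHCII- cells. By limma 0 members had an unadjusted p under 0.05 in each of these day 1 and day 4 comparisons, and 2 did in DTR- mice of the DT 8 h set, as against 1048 of all genes.

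**Figure D5:**
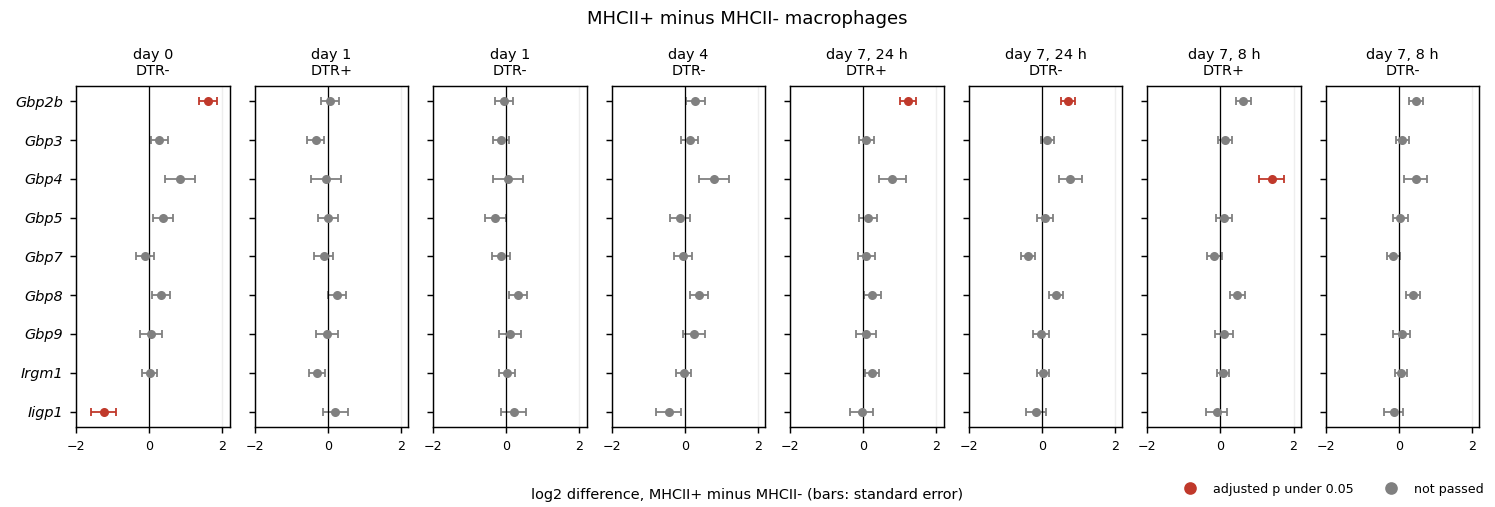
Each panel gives the log2 difference of MHCII+ minus MHCII- macrophages on the x axis with its standard error, 1 row per gene, and red points passed at an adjusted p under 0.05. Gbp2b lies at 1.61 at day 0 and at 1.22 (DTR+) and 0.72 (DTR-) in the DT 24 h set, Gbp4 at 1.40 in DTR+ cells of the DT 8 h set, Iigp1 at -1.24 at day 0, and the other points did not pass.

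Across the 18 group means, the genes outside the members that followed the members' average most closely were Cd274 (r = 0.95), Psmb10, Gbp11, Gm12185, Tapbpl, Dennd1b, Mmp13, Rnf19b, Sharpin and Il27 (0.90). Psmb10 encodes a subunit of the immunoproteasome and Tapbpl a peptide editor of class I molecules. Without the DTR+ group of day 7 with no DT time, whose values lie far from the rest, r was 0.90 for Cd274 and 0.83 for Mmp13. The closest gene was then Gm12185 (0.96). Of the 10 named genes only Gm12185 and Gbp11 (rank 7) stayed among the closest 10. Cd274 fell to rank 19, Mmp13 to 117, Rnf19b to 172 and Il27 to 206, so the list depends much on that group. The closest gene to each member was Socs1 for Gbp2b, Gm12185 for Gbp3, Gbp11 for Gbp4, Tapbpl for Gbp5, Samhd1 for Gbp7, Cd274 for Gbp8, Gdap10 for Gbp9, Gm12250 for Irgm1 and Gm4951 for Iigp1, at r of 0.90 to 0.98. These are descriptions over 18 points that share arrays and normalization. Within groups, Il27 deviated opposite to the members (r = -0.33 over 45 arrays), whereas Cd274 deviated with them (0.67).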

How the data were processed

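The authors deposited linear intensity values, 1 per probe set and array (24922 probe sets, 45 arrays, medians 174.7 to 203.7); the submitters' processing notes name RMA and Affymetrix Power Tools. Here log2 of these values was used. RMA sets all arrays to a common distribution, so a shift shared by most genes would not be seen, and the number of arrays (2 to 4 per group) limits the precision. GEO's platform table gave 1 gene symbol to 21425 probe sets, several to 1399 and none to 2098. Each gene was read from its single-symbol probe set with the highest mean; each member had 1. Genes with a group mean of at least log2 7.57, the median of all values, in at least 1 of 18 groups were tested. limma 3.58.1 (R 4.3.3) fitted 1 mean per group over all arrays (lmFit, eBayes with trend), with Benjamini-Hochberg adjustment over the tested genes in each of 32 comparisons and a threshold of 0.05. The fit was tested on simulated data.

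The 9 members and the gene lists were chosen with earlier results of these data known. Named were all members, of each other list up to 4 genes with the smallest p in a comparison and any other GTPase that passed, and the genes most correlated with the members. Alternatives were no filter and a stricter filter, centred arrays, no trend, array weights, the compared groups alone, a replicate block, and each array left out. No 2 arrays were identical. Same-numbered DTR- MHCII+ and MHCII- arrays of the DT 8 h set deviated together (correlations 0.527, 0.480 and 0.583) and were treated as pairs in the block. No scan date or other batch was available here beyond the sets themselves. Python 3.11.15 made the tables and figures.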

Additional observations from a re-analysis of the deposited data

Results flagged for a closer look

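Differences between 2 effects passed for 13 pairs of a member and a comparison. For Gbp2b, the change from day 0 to day 1 in DTR- mice was lower in MHCII+ than in MHCII- cells by a log2 difference of -1.66. The other 12 set the DTR+ minus DTR- difference of day 7 MHCII+ cells with no DT time against that of a DT set, comparisons added after the values had been seen. Relative to DT 24 h the difference was larger by 3.67 for Gbp2b, 2.87 for Gbp4, 2.42 for Gbp8 and 1.43 for Gbp5. Relative to DT 8 h it was larger by 4.65 for Gbp2b, 3.68 for Gbp4, 2.91 for Gbp8, 2.30 for Gbp5, 2.26 for Iigp1, 1.37 for Gbp3, 1.25 for Gbp7 and 0.86 for Irgm1. Both comparisons share the arrays with no DT time. Gbp8 entered the tests only through DTR+ groups, so its values are not separate support. In 18 pairs of a member and a group of 4 arrays that were tested for an array far from its group, 0 were found.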

How the results depend on the processing

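Of 288 pairs of a member and a comparison 49 passed, 27 of these under every alternative run, and 0 changed sign. Of the 49 calls 6 were lost with the compared groups alone, 4 each with array weights, centred arrays or no filter, and 0 with a stricter filter or no trend. The cause of the losses and gains below was not tested. Array weights ran from 0.0301 to 31.2 and their estimation stopped before it converged. For DTR+ against DTR- at DT 24 h, day 7, the count in MHCII+ cells (2) was 0 with array weights, 0 with centred arrays, 1 with no filter and 0 with the compared groups alone. With array weights the MHCII- count (0) was 9, day 1 MHCII- (0) was 1, the DT 8 h DTR- subsets (0) 1, day 1 against day 0 in MHCII- cells (2) 6, day 7 against day 4 0 in MHCII+ (1) and 7 in MHCII- cells (0), DT 24 h minus DT 8 h in MHCII- cells (0) 9, day 7 minus day 1 in MHCII- cells (0) 8, and the subset difference in the day 1 change (1) 2. With the compared groups alone the subset counts were 1 at day 0 (2), 1 at day 4 (0), 1 at day 1 in DTR+ mice (0), and 0 at DT 24 h in DTR- mice, DT 24 h in DTR+ mice and DT 8 h in DTR+ mice (1 each); day 4 against day 1 in MHCII- cells (4) gave 8.

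With the replicate block, the DT 24 h MHCII- genotype count (0) was 3, and day 7 against day 4 gave 0 in MHCII+ (1) and 1 in MHCII- cells (0); these groups share only numbers (correlations 0.282, 0.0923 and 0.201 in the first), and the block moved no other count by over 1.5 times. No paired analysis was possible for 5 comparisons because their groups share fewer than 2 numbers. The block was also not run for differences of genotype effects between sets of arrays, among them those against the set with no DT time. In all it covered 27 of the 49 calls.

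With each array left out, counts ran from 0 to 2 for the DT 24 h genotype difference in MHCII+ cells and 0 to 6 in MHCII- cells, 1 to 2 for the subsets at day 0, 0 to 1 at DT 24 h in both genotypes and 0 to 2 at DT 8 h in DTR+ mice. They ran from 1 to 4 for day 1 against day 0 in MHCII- cells, 2 to 5 for day 4 against day 1 in MHCII+ cells, 0 to 1 for day 7 against day 4 in both subsets, 1 to 3 for day 7 against day 0, 0 to 1 for DT 24 h minus DT 8 h in MHCII- cells, and 1 to 2 for the subset difference in the day 1 change. The alternative of averaging probe sets was not run, as each member had 1.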
